A study of Homo sapiens with 6 samples.

Results

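To see how the program that separates epithelial from mesenchymal cells was set in the tumor core (TC) and the tumor margin (TM), the rows of 10 genes were read from the gene expression matrix. These were the markers VIM, FN1, CDH1 and CDH2 and the transcription factors ZEB1, ZEB2, SNAI1, SNAI2, TWIST1 and TWIST2. All 10 of 10 were found by gene symbol among the 60930 features of the matrix. All tumors came from MDA-MB-231 cells of WT genotype, a breast cancer line of human origin without estrogen, progesterone or HER2 receptor overexpression and with a mesenchymal shape, placed by orthotopic injection in the fat pad of the breast. The hosts were female NSG mice, which lack mature lymphocytes and natural killer cells but keep their own fibroblasts, vessels, muscle and fat, and were young adults according to the methods of the study. Core and margin tissue was taken apart, giving 3 TC and 3 TM samples, and neither group received any further agent. The labels do not say which core and margin came from the same mouse.

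Epithelial-mesenchymal transition (EMT) is the process by which epithelial cells give up E-cadherin junctions and take on the shape and motility of mesenchymal cells. The zinc finger factors SNAI1, SNAI2, ZEB1 and ZEB2 bind E-box sequences and repress CDH1, which encodes E-cadherin. The basic helix-loop-helix factors TWIST1 and TWIST2 act as dimers with E proteins. VIM, the intermediate filament vimentin, FN1, the matrix protein fibronectin, and CDH2, N-cadherin, are the usual mesenchymal readouts of the switch. ZEB1 and ZEB2 are in turn held down in epithelial cells by the miR-200 family of microRNAs, whose genes ZEB1 and ZEB2 repress.

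The values are TPM, a share of all transcripts, which correct for transcript length and therefore allow levels of different genes to be set side by side. Read depth cannot be read from TPM, so no counting interval is given. The TC samples had 21063 to 21942 genes above 0 and the TM samples 22678 to 23216. Mitochondrially encoded genes took 6.08% to 8.82% of the TPM in TC and 9.23% to 11.0% in TM. Both quantities were thus lower in every TC sample than in every TM sample, so the libraries of the groups differed in composition. Of the 10 genes chosen as high in MDA-MB-231, all were above 100 TPM in every sample. Of the 9 chosen as low, ESR1, PGR, CDH1, ESRP1 and GRHL2 stayed below 1 TPM, whereas ERBB2 was at 22.3 to 40.7 TPM and EPCAM at 3.66 to 6.02 TPM. GATA3 was at 2.02 to 3.9 TPM and FOXA1 at 2.06 to 4.17 TPM. TM replicates 1 and 2 stood apart from the other samples in the human rows of genes that mark host tissues. The summed TPM of 18 fibroblast markers was 621 and 1166 in these libraries and 191 to 333 in the other 4, and the summed TPM of 22 skeletal muscle markers was 489 and 859 against 276 to 366. The members' differences that moved most with these samples are therefore given with and without them.

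**Figure D1:**
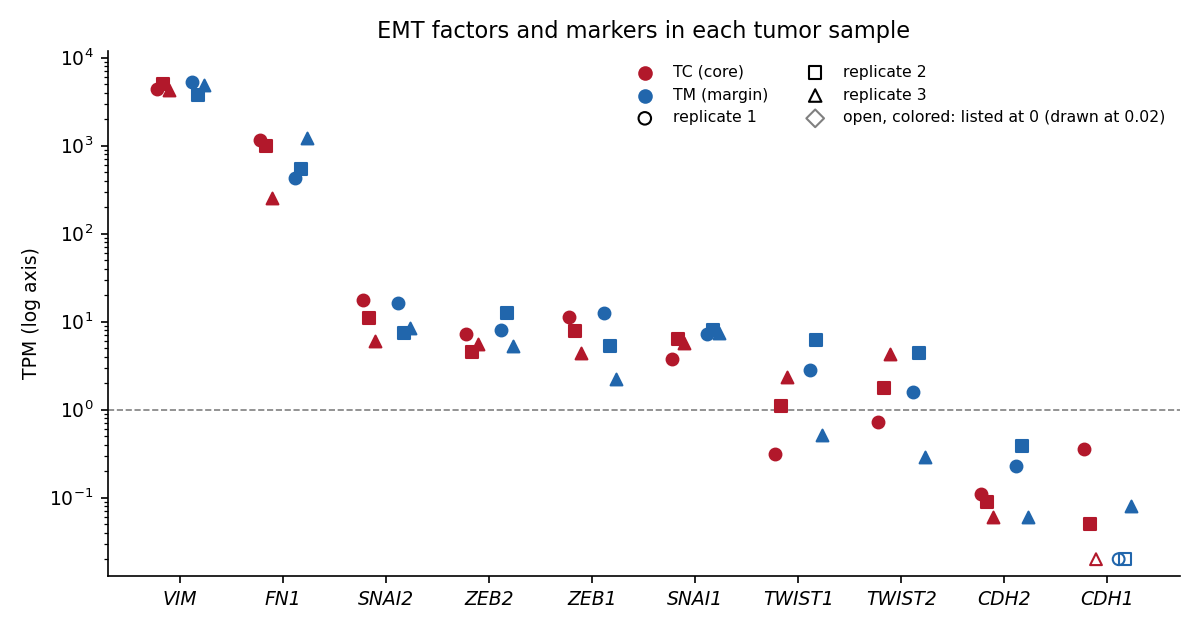
Level of each of the 10 genes in each sample, in TPM on a log axis, for TC (red) and TM (blue) with 1 marker shape per replicate number. The dashed line is 1 TPM, open colored symbols are values listed at 0, and VIM and FN1 lie far above the 6 transcription factors while CDH2 and CDH1 lie below 1 TPM in every sample.

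The tumors expressed the mesenchymal markers VIM and FN1 at high level, all 6 transcription factors at low level, and CDH1 and CDH2 at less than 1 TPM. In TC the level of VIM was 4457, 5074 and 4243 TPM for replicates 1, 2 and 3, and in TM it was 5283, 3797 and 4895 TPM in the same order, which is kept throughout. The groups overlapped, and VIM ranked between position 20 and position 41 of all annotated genes in every sample. The TC minus TM difference of log2(TPM + 1) was −0.011 (SE 0.17, 95% interval −0.39 to 0.37), with an adjusted p of 0.986 in the limma fit across all genes. That difference was 0.17 under median-of-ratios scaling, so no direction is given for VIM.

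FN1 differed more among replicates than between the groups. It was at 1155, 999.6 and 255.8 TPM in TC and at 431, 551 and 1210 TPM in TM. TC replicate 3 was the lowest sample and TM replicate 3 the highest, 4.73-fold apart. The log2 difference was 0.014 (SE 0.58, 95% interval −1.32 to 1.35, limma adjusted p = 0.994) and was −0.038 when TPM was recomputed without mitochondrially encoded genes. Among 106 tested genes within 0.5 log2 units of its mean level, 99.1% had a smaller standard deviation over the 6 samples than the 0.90 of FN1.

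CDH1, the epithelial cadherin, was at 0.36, 0.050 and 0 TPM in TC and was listed at 0, 0 and 0.080 TPM in TM. It was listed at 0 in 3 of 6 samples and came under the expression filter of 1 TPM in 3 of 6 samples, so the main fit did not test it. CDH2, the cadherin that mesenchymal cells commonly gain, was likewise under the filter. Its values were 0.11, 0.090 and 0.060 TPM in TC and 0.23, 0.39 and 0.060 TPM in TM. In the limma fit without a filter, neither cadherin passed the adjusted threshold of 0.05. At these levels a difference between TC and TM was not detectable for either cadherin.

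Among the zinc finger factors, SNAI1 was the 1 gene whose core and margin values did not overlap. SNAI1, a short-lived repressor of CDH1, was at 3.79, 6.35 and 5.74 TPM in TC and at 7.33, 8.02 and 7.5 TPM in TM. All 3 core values lay below all 3 margin values, with means of 5.29 ± 1.34 TPM (SD, n = 3) and 7.62 ± 0.36 TPM (SD, n = 3). The log2 difference was −0.48 (SE 0.23, 95% interval −1.01 to 0.054), with an unadjusted p of 0.0723 and an adjusted p of 0.371 by limma. The non-overlap covered 1 of 8 tested members (12.5%), whereas 22.2% of all 13861 tested genes had groups that did not overlap, 18.9% with TC lower and 3.28% with TC higher. The SNAI1 difference stayed below 0 in every setting tried, from −0.60 to −0.28. Its smallest unadjusted limma p was 0.0490, without the empirical Bayes trend, where the adjusted p was 0.327.

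SNAI2, also called SLUG, was the most abundant of the 6 factors by mean, at 11.1 ± 4.83 TPM (SD, n = 6). Its values were 17.8, 11.0 and 6.01 TPM in TC and 16.2, 7.38 and 8.43 TPM in TM. Replicate 1 was the highest sample in both groups, which overlapped across nearly their whole range. The log2 difference was 0.075 with an SE of 0.40 (limma adjusted p = 0.957).

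ZEB1 and ZEB2, paired zinc finger and homeodomain repressors, had nearly equal means but different patterns over the samples. ZEB1 was at 11.2, 7.76 and 4.39 TPM in TC and at 12.4, 5.23 and 2.25 TPM in TM. ZEB2 was at 7.23, 4.47 and 5.53 TPM in TC and at 8.15, 12.6 and 5.32 TPM in TM. ZEB1 was highest in replicate 1 of each group, ZEB2 was highest in TM replicates 1 and 2, and both genes overlapped between the groups. The log2 difference of ZEB1 was 0.36 (SE 0.51, 95% interval −0.81 to 1.53, limma adjusted p = 0.793). That of ZEB2 was −0.47 (SE 0.31, 95% interval −1.19 to 0.24, limma adjusted p = 0.527). Without TM replicates 1 and 2, which leaves a single margin sample assumed to vary like the core samples, the ZEB1 difference was 1.36 and that of ZEB2 0.073. The unadjusted p for ZEB1 was then 0.0188, and its adjusted p by limma over the settings tried ran from 0.226 to 0.964. Without TM replicate 3, the differences were −0.14 for ZEB1 and −0.74 for ZEB2. The unadjusted limma p for ZEB2 was then 0.0312 and its adjusted p 0.210.

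The basic helix-loop-helix factors were the least abundant of the 6. TWIST1 was at 0.31, 1.09 and 2.35 TPM in TC and at 2.85, 6.16 and 0.52 TPM in TM. TWIST2 was at 0.73, 1.77 and 4.28 TPM in TC and at 1.60, 4.39 and 0.29 TPM in TM. The groups overlapped for both, and the highest sample was 19.9-fold above the lowest for TWIST1 and 15.1-fold for TWIST2. The log2 difference was −0.73 for TWIST1 (SE 0.57, 95% interval −2.04 to 0.58, limma adjusted p = 0.600) and 0.16 for TWIST2 (SE 0.57, 95% interval −1.14 to 1.47, limma adjusted p = 0.926). TWIST1 gave −1.33 without TM replicate 3, with an unadjusted p of 0.0172, and 0.46 without TM replicates 1 and 2. TWIST2 gave 1.19 without TM replicates 1 and 2.

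The ratio of the TWIST genes did not overlap between the groups, although the values of each gene did. In TC the ratio of TWIST2 to TWIST1 was 2.36, 1.62 and 1.82, whereas in TM it was 0.561, 0.713 and 0.558. TWIST2 exceeded TWIST1 in all 3 core samples and TWIST1 exceeded TWIST2 in all 3 margin samples. This ratio was 1 of 5 between members, was computed after the members' values had been seen, and is given without a test. How often ratios of other gene pairs do not overlap was not computed, and 22.2% of all 13861 tested genes did not overlap singly. In TC replicate 1 and TM replicate 3 both TWIST genes lay below 1 TPM, so these ratios rest on low values. The other 4 ratios, ZEB1 to ZEB2, SNAI2 to SNAI1, VIM to FN1 and SNAI2 to ZEB1, overlapped between the groups. None of the 31-base stretches of the longest protein-coding TWIST1 and TWIST2 transcripts occurred in a transcript of another gene.

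**Figure D2:**
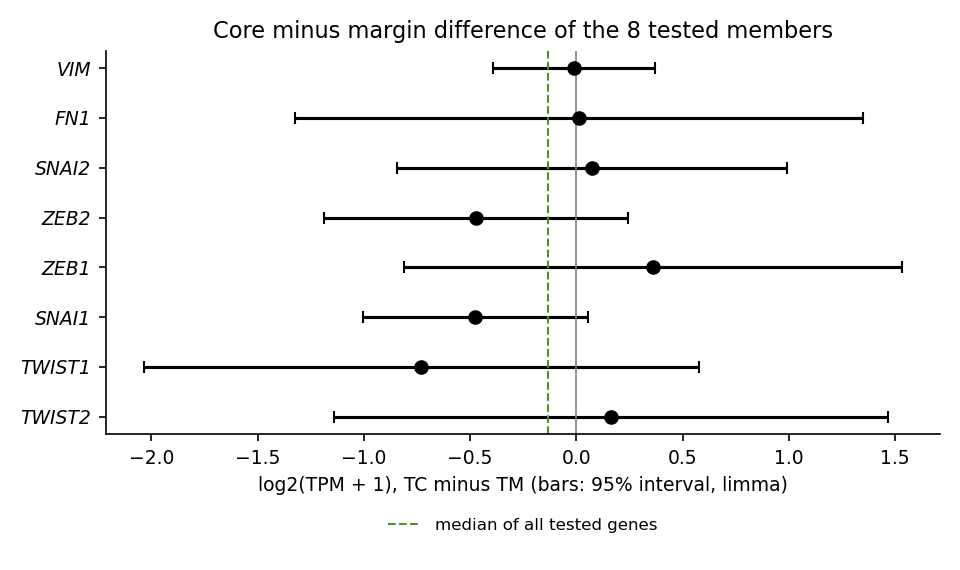
TC minus TM difference of log2(TPM + 1) for the 8 tested genes, with points for the limma estimate and bars for its 95% interval. The dashed line is the median of all 13861 tested genes at −0.14, and every interval spans 0.

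None of the 8 tested members passed the adjusted threshold of 0.05 in limma, the only tool run, and none had an unadjusted p under 0.05. Over all 13861 genes tested, 0.137% passed the adjusted threshold (0.13% lower in TC and 0.00721% higher) and 16.2% had an unadjusted p under 0.05 (14.2% lower and 1.93% higher). The members' adjusted p ran from 0.371 to 0.994, 4 of the 8 were lower in TC and 4 higher, and 5 of the 8 differences were smaller than their own standard error. The median difference of the members was 0.0014, beside −0.14 for all tested genes, of which 67% were below 0. The median of all genes was 0.014 under quantile normalization and 0.021 under median-of-ratios scaling. Both scalings bring the samples to a common level, which holds this median near 0, so they cannot show whether the general lean is real. Of the genes with an unadjusted limma p under 0.05, 88% were lower in TC in the main setting. The shares were 60.4% and 57% under the 2 scalings. The intervals of all tested members other than VIM and SNAI2 reached beyond 1 log2 unit in at least 1 direction. With 3 samples a group, differences of that size were therefore not excluded for those members.

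By mean TPM over the 6 samples the order was VIM, FN1, SNAI2, ZEB2, ZEB1, SNAI1, TWIST1, TWIST2, CDH2 and CDH1. VIM exceeded FN1 and FN1 exceeded SNAI2 in 6 of 6 samples, and SNAI2 exceeded ZEB2 in 5 of 6. ZEB2 exceeded ZEB1 in 3 of 6 samples and ZEB1 exceeded SNAI1 in 3 of 6, so these neighbors did not differ beyond their spread. TWIST1 exceeded TWIST2 in the 3 TM samples and lay below it in the 3 TC samples. The 6 factors together came to 41.0, 32.5 and 28.3 TPM in TC and to 48.5, 43.8 and 24.3 TPM in TM. The groups overlapped in this sum, and SNAI2 held the largest share of it in 5 of 6 samples.

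**Figure D3:**
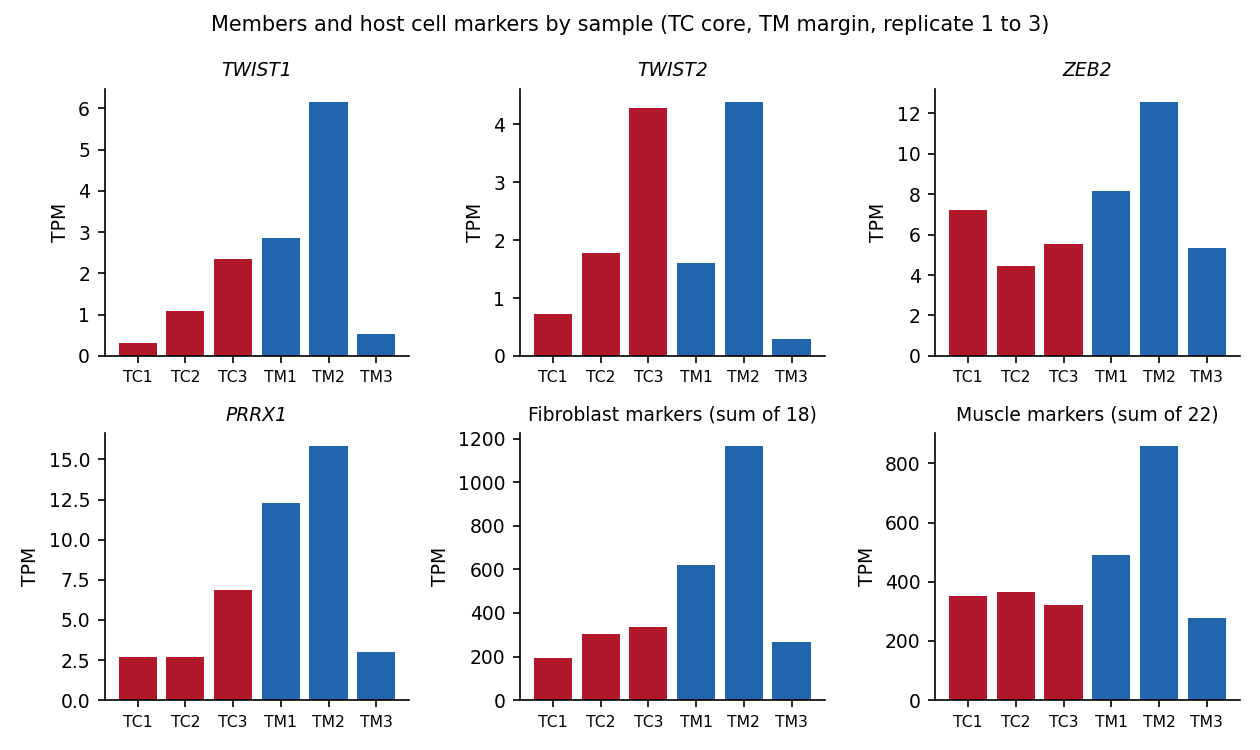
TPM of TWIST1, TWIST2, ZEB2 and PRRX1 and the summed TPM of the fibroblast and skeletal muscle marker lists, with 1 bar per sample (TC red, TM blue). TM replicates 1 and 2 are the highest samples in every panel except that of TWIST2, where TC replicate 3 comes second.

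TWIST1 followed the summed host fibroblast markers across samples, though not every marker of that list. It and the fibroblast marker sum put the 6 samples in the identical order, from TM replicate 2 at the top through TM replicate 1, TC replicates 3 and 2 and TM replicate 3 to TC replicate 1. All 10 members were set beside this sum and the muscle marker sum. TWIST1, the only identical match, was picked after those orders were seen. The fibroblast sum was 191, 302 and 333 TPM in TC and 621, 1166 and 268 TPM in TM. ZEB2 and CDH2 shared only the top of this order, TM replicates 2 and 1, and CDH2 was under the filter. Also highest in these was PRRX1, a homeobox EMT factor picked after its values were seen, at 12.3 and 15.8 TPM against 2.66 to 6.88 TPM in the others. COL1A1, the main fibrillar collagen chain, was the highest fibroblast marker by mean over the 6 samples, with 44.7, 83.8 and 161 TPM in TC and 335, 698 and 62.9 TPM in TM. GSN, an actin-severing protein that tumor cells also make, was next and lay above COL1A1 in TC replicates 1 and 2 and TM replicate 3. Unlike COL1A1, GSN did not share the TWIST1 order and was highest in TC replicate 2, at 168 TPM, and TM replicate 3, at 163 TPM. No marker of this list was at 0 in every sample, but several stayed below 1 TPM throughout. Of the muscle list, TNNT1 held 272 to 357 TPM in all samples, and ACTA1, skeletal actin, was at 0.87 to 2.87 TPM in 4 samples and at 53.7 and 165 TPM in TM replicates 1 and 2. The part of host cells in the TWIST1, ZEB2 and CDH2 values was not tested, and in bulk tissue fewer cells of a type and less RNA per cell cannot be told apart.

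The markers of other host cells spanned narrower ranges. The endothelial list summed to 38.4 to 42.6 TPM in TC and 44.1 to 56.8 TPM in TM, led by ESAM and ROBO4, with EMCN at 0 in every sample. The macrophage list, led by CD68 and ADGRE1, summed to 96.5 to 110 TPM in TC and 103 to 114 TPM in TM, and C1QA, C1QB, C1QC, MARCO and TYROBP were at 0 throughout. The adipocyte list, led by LPL and PLIN1 by mean over the 6 samples, reached 0.66 to 0.96 TPM in TC and 1.35 to 1.64 TPM in TM, with ADIPOQ, LEP and CIDEA at 0. CD68 alone was at 84.8 to 94.2 TPM and made most of the macrophage sum. All these lists hold human genes read on hg38, whereas the hosts were mice, and the handling of mouse reads is not given. The sums are therefore not a measure of how many host cells were present. The part of these cells in the members' values was not tested either.

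ZEB1 and ZEB2 are known targets of the miR-200 family and their transcripts hold several matches to its seeds, which is why the sequences are shown here. The mature microRNAs of the family are given below 5′ to 3′ from RefSeq (GRCh38.p14), with the seed, bases 2 to 8, in capitals.
hsa-miR-200b-3p: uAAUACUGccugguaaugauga
hsa-miR-200c-3p: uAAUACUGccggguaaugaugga
hsa-miR-429: uAAUACUGucugguaaaaccgu
hsa-miR-200a-3p: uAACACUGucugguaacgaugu
hsa-miR-141-3p: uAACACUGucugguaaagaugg
The first 3 share the seed AAUACUG and the last 2 the seed AACACUG. In DNA letters the matches are CAGTATT and CAGTGTT, searched on the transcript strand only.

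The longest protein-coding transcript of ZEB1 (chr10:31318495-31529814, plus strand) held 6 CAGTATT and 7 CAGTGTT matches in 6267 bases, and that of ZEB2 (chr2:144364364-144524583, minus strand) held 6 and 7 in 9583 bases (GENCODE release 29, GRCh38). Of 19684 protein-coding genes, 23.1% had any CAGTATT and 10 (0.0508%) had at least 6, counts that were not corrected for transcript length. FN1 had 3 CAGTATT matches and SNAI2 had 1, whereas VIM, CDH1, CDH2, SNAI1, TWIST1 and TWIST2 had none. In the 3′ untranslated region lay 6 CAGTATT and 3 CAGTGTT matches for ZEB1 and 5 and 4 for ZEB2. The CAGTATT matches there that are followed by an A are printed with the match in capitals and the number of bases after the end of the coding sequence.
ZEB1 at 372: attgttttatcttatCAGTATTatcactct
ZEB1 at 1246: ctgatttttacctatCAGTATTattttatt
ZEB1 at 1316: tgtcttcaaacctggCAGTATTaataccct
ZEB2 at 458: cgcactacaatgcatCAGTATTatgattcc
ZEB2 at 816: ttgaagcacccatgtCAGTATTagaagaat
ZEB2 at 901: gttcattaattttgtCAGTATTacaccaaa
ZEB2 at 1032: tcatactgtagtgtaCAGTATTatagttct
The first ZEB1 window lies at chr10:31527618-31527647 and the first ZEB2 window at chr2:144388982-144389011. These are letter matches, not measured binding sites, and the search was added after the members' values had been seen. The microRNA genes MIR200A, MIR200B, MIR200C, MIR141, MIR429 and MIR205 and the host transcripts MIR200CHG and MIR205HG were listed at 0 in all 6 samples. Mature microRNAs were not measured in these libraries.

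The E-box CAGGTG, the site bound by the SNAI and ZEB factors, was searched on either strand from 250 bases before to 50 after each annotated start. It occurred in 20.6% of 35116 RefSeq promoter windows. Of the 6 members with a window, ZEB1 had it in 2 of 7 windows and VIM, FN1, CDH2, ZEB2 and TWIST2 did not have it. CDH1, SNAI1, SNAI2 and TWIST1 were not searched.

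Antisense genes overlapped some members. ZEB1-AS1, on the opposite strand at the ZEB1 start, was at 3.21, 2.16 and 1.75 TPM in TC and at 5.17, 1.78 and 1.58 TPM in TM, highest in the samples where ZEB1 was highest. ZEB2-AS1 stayed at 0.040 to 1.05 TPM and VIM-AS1 at 1.12 to 3.48 TPM. The methods name an orientation mode for the alignment but not whether counting used strand, so here reads of a gene and its antisense partner cannot be told apart. SNAI3-AS1 was at 1.18 to 2.57 TPM. A pseudogene of ZEB2 shared most of the 2.24% of its 31-base stretches found elsewhere, and one of SNAI1 shared 0.423%.

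For each tested member, the genes with the closest centered log2 profile over the 6 samples were sought among all tested genes, by root mean square difference. ZEB1 lay nearest to CMTM1 at 0.066 and EEA1 at 0.13, far inside its own spread of 0.71 about the mean. ZEB2 lay nearest to CENPC (0.087) and SESTD1 (0.098), and SNAI2 to STK38L (0.085) and LRIF1 (0.11). SNAI1 lay nearest to FANCD2 (0.054) and SMCO4 (0.062), VIM to HMGN3 (0.040) and NR1H3 (0.050), and FN1 to ZNF12 (0.29) and IQCK (0.30). TWIST1 lay nearest to the ribosomal protein pseudogene RPL7P32 and to PPIAP29, both at 0.13, and TWIST2 to MIR137HG (0.23) and H2AC16 (0.24). Between members, VIM and SNAI1 differed by 0.34, with own spreads of 0.16 and 0.31, ZEB1 and SNAI2 by 0.41, and ZEB2 and SNAI1, like TWIST1 and TWIST2, by 0.46. In none of these pairs was the likeness tested.

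**Figure D4:**
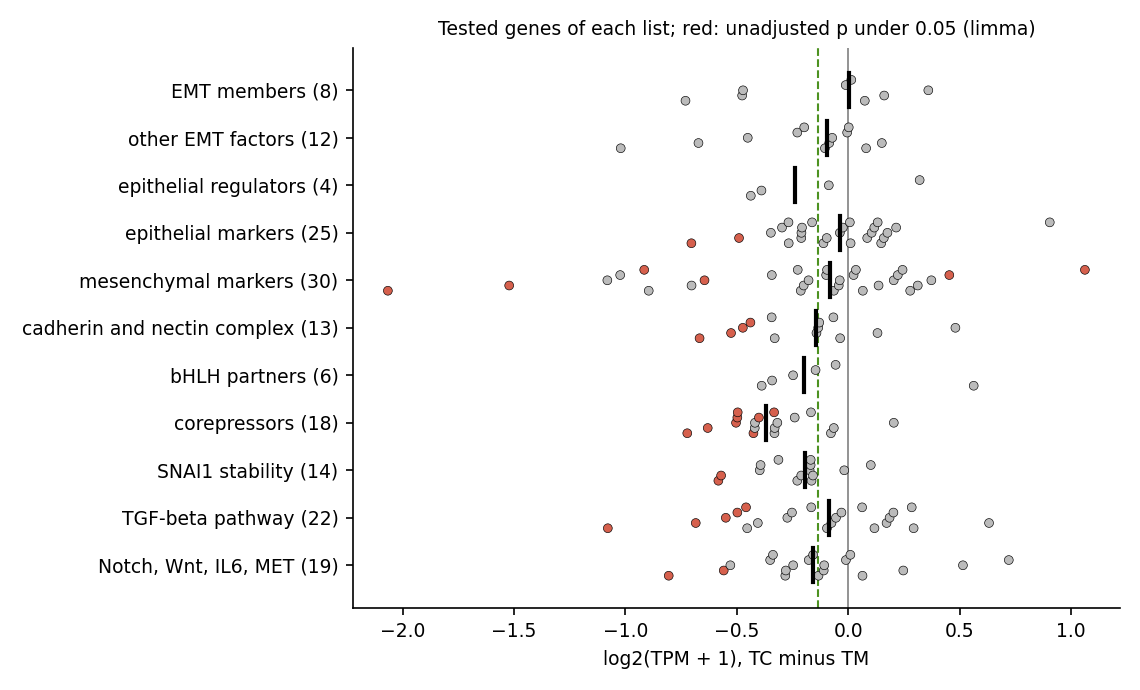
TC minus TM difference of log2(TPM + 1) for each tested gene of the members and of the related lists, with 1 point per gene and the number tested in brackets. Red points have an unadjusted limma p under 0.05, black bars are list medians and the dashed line is the median of all tested genes, and no gene of these lists passed the adjusted threshold.

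The wider EMT network was read from the same fit, and none of its 10 lists held a gene past the adjusted threshold. Of 16 other EMT factors, 12 were tested and none had an unadjusted p under 0.05, beside 16.2% of all genes, with a median difference of −0.095. FOSL1, an AP-1 subunit, was the most abundant by mean, at 93.5 to 175 TPM, and HMGA2, a chromatin architectural protein, followed at 67.2 to 118 TPM, both with overlapping groups. Both exceeded every one of the 6 member factors in every sample. Among the 14 epithelial regulators that oppose EMT, 4 were tested, led by KLF4 (13.8 to 21.4 TPM) and KLF5 (2.71 to 8.94 TPM), and OVOL2 and ELF5 were listed at 0 in every sample. The other 2 tested, GATA3 and FOXA1, were lower in TC without overlap, beside 18.9% of all tested genes. None of the 4 had an unadjusted limma p under 0.05. The E proteins TCF3 and TCF12, dimer partners of the TWIST factors, were at 59.0 to 81.1 TPM and 14.0 to 26.9 TPM, and none of the 6 tested genes of that list had an unadjusted p under 0.05.

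Epithelial and mesenchymal markers were mixed in direction. The 34 epithelial markers summed to 1924 to 2214 TPM in TC and 1701 to 2325 TPM in TM. Keratins led this sum, with means over the 6 samples of 589 TPM for KRT7, 480 for KRT18, 399 for KRT8 and 237 for KRT19. The near absence of CDH1 was thus not shared by these keratins, but MARVELD2, MARVELD3, RAB25 and PPL also stayed below 1 TPM in every sample. The 32 mesenchymal markers summed to 10380 to 11800 TPM in TC and 10830 to 11240 TPM in TM, and LGALS1 alone had a mean of 6062 TPM. Of 25 tested epithelial markers, 2 had an unadjusted p under 0.05, both with TC lower (14.2% of all genes). EVPL, a cell envelope protein, had a log2 difference of −0.70. Of 30 tested mesenchymal markers, 4 were lower and 2 higher at that level, beside 14.2% and 1.93% of all genes. S100A4, a calcium-binding protein of motile cells, was at 450, 443 and 273 TPM in TC and at 179, 173 and 191 TPM in TM. All core samples lay above all margin samples, the log2 difference was 1.06 (SE 0.20), and the adjusted p by limma was 0.0813. TPM2, tropomyosin, and ACTA2, smooth muscle actin, gave −2.07 and −1.52, and both were highest in TM replicates 2 and 1. Without these samples the differences were −1.16 and −0.49. ACTA2 passed the adjusted threshold without TM replicate 3, at −2.04 with an adjusted p of 0.0091 by limma. That adjusted p ran up to 0.439 over the settings tried. Without TM replicate 3, 2 of the 30 markers passed, and 9 were lower and 3 higher with an unadjusted limma p under 0.05. Of all 13861 genes, 17 then passed, and 2322 were lower at the unadjusted level. TNC, a matrix glycoprotein, gave −0.65.

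The partners of the repressors leaned toward lower values in TC. Of 18 corepressors through which SNAI and ZEB factors act, 17 had a difference below 0, beside 67% of all tested genes, and 8 had an unadjusted p under 0.05, beside 14.2% of all genes with TC lower, with a median of −0.37. CTBP1, a corepressor of ZEB1, was at 40.6, 47.2 and 44.1 TPM in TC and at 66.1, 62.0 and 78.4 TPM in TM, without overlap, and its log2 difference was −0.63 (SE 0.14, limma adjusted p = 0.0941). DNMT1, the maintenance methyltransferase, gave −0.72, KDM1A, a histone demethylase recruited by SNAI1, gave −0.43, and HDAC1 gave −0.33. Without TM replicates 1 and 2, DNMT1 gave −0.35 and HDAC1 −0.19. Under median-of-ratios scaling 14 of the 18 were below 0, with a median of −0.19, and 2 had an unadjusted p under 0.05. Under that scaling the median of all genes was 0.021, and 1061 of 13861 genes were lower with an unadjusted limma p under 0.05.

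Of 14 tested genes that govern SNAI1 stability, 13 were below 0, beside 67% of all genes. GSK3B, the kinase that marks SNAI1 for decay, and PAK1 gave −0.57 and −0.58 with unadjusted p under 0.05, and 2 of 14 is close to the 14.2% of all genes that were lower at that level. Under quantile normalization and under median-of-ratios scaling 10 of the 14 were below 0, the median of −0.19 became −0.025 and −0.057, and 0 and 1 genes had an unadjusted p under 0.05. The median of all genes was then 0.014 and 0.021, and 1124 and 1061 of 13861 genes were lower with an unadjusted limma p under 0.05. These are also the background for the rescaled counts that follow. Of 13 cadherin and nectin complex genes, 4 had an unadjusted p under 0.05 with TC lower (14.2% of all genes), NECTIN1 at −0.67, VCL at −0.44, AFDN at −0.53 and CTNND1 at −0.47. Under quantile normalization, as under median-of-ratios scaling, 1 of the 13 was lower and 1 higher at that level. The TGF-beta pathway, a main inducer of EMT, had 5 of 22 tested genes lower in TC at that level, again beside 14.2% of all genes, among them TGFB3 at −1.08, LTBP2 at −0.68, SMAD3 at −0.55 and SKI at −0.50. The count was 2 lower and 1 higher under quantile normalization and 3 lower and 1 higher under median-of-ratios scaling, and TGFB3 gave −0.52 without TM replicates 1 and 2. Of 19 Notch, Wnt, IL6 and MET genes, only NOTCH1 at −0.81 and NOTCH2 at −0.56 had an unadjusted p under 0.05, no larger a share than the 16.2% of all genes. The medians were −0.14 for the cadherin list, −0.085 for TGF-beta and −0.16 for the Notch and Wnt list. At least 1 other scaling turned each of these above 0, as it did the median of all genes. The same held for the medians of the other EMT factors (−0.095), the epithelial markers (−0.037) and the mesenchymal markers (−0.080).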

How the data were processed

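RNA from 3 TC and 3 TM samples was sequenced by a service provider with a TruSeq RNA kit, and per the labels the processing used HISAT2, StringTie and RSEM with hg38. The authors deposited 1 matrix of TPM per gene, without counts, so a model of log values took the place of the count model in the methods of the study. Handling of mouse reads is not given in the sources used here. No other column of per-sample values was present (0).

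Values were log2(TPM + 1), restricted to the 13861 genes that reached 1 TPM in 3 or more samples. TC and TM were compared with limma 3.58.1 in R 4.3.3 (empirical Bayes with trend, two-sided, Benjamini-Hochberg adjustment over all tested genes, threshold 0.05), and the step was tested on simulated data. The study gives 3 mice a group but the labels name no animals, so p-values measure the spread between these samples.

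The members and lists were chosen with earlier results of these data known. All members were named. From each related list up to 4 genes with an unadjusted p under 0.05 were named, or otherwise the 2 with the highest mean TPM. From host lists the markers at 0 throughout and the 2 highest were named. For each tested member the 2 genes nearest in profile were named. PRRX1, the low markers of the cell line, ZEB2-AS1 and VIM-AS1 were named after their values were seen. MYLPF had no row among the 313 list genes. Positions come from GENCODE release 29, which holds 96.3% of the annotated genes. Alternatives were another pseudocount, other filters, 3 scalings, 2 other empirical Bayes settings, a replicate block and leaving out samples. The values of 1 gene that the rule names are not reported here. The protein comparison of TWIST1 and TWIST2 was not made.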

Additional observations from a re-analysis of the deposited data

How the results depend on the processing

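Depth is unknown, and 3 samples a group limit the precision. No member passed the adjusted threshold of 0.05 in any setting, and their median, 0.0014, was −0.083 with quantile normalization, 0.18 with median-of-ratios scaling, −0.28 to −0.10 with 1 sample left out and 0.19 without TM replicates 1 and 2, beside a spread between replicates of 0.30 (SD), so its sign is not settled. The count of all genes called, 19, was 7 with a pseudocount of 0.1, 1 without a filter, 4 with quantile normalization, 6 with median-of-ratios scaling, 12 without trend, 47 with robust empirical Bayes and 1 to 17 with 1 sample left out (1 without TC replicate 3 and 1 without TM replicate 1, 4 without TC replicate 1 and 9 without TM replicate 2), and 195 without TM replicates 1 and 2, an alternative chosen after seeing the data. Same-numbered TC and TM samples had correlations of 0.211, −0.121 and −0.165 in their deviations from the group means, so the numbers were not taken to pair samples. With the replicate number as a block 1 gene was called, and no member.

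Differences (log2, TC minus TM) changed sign in these settings, and the cause was not tested. With quantile normalization they were 0.0016 for HMGA2, 0.10 for KLF4, 0.14 for TCF12 and 0.084 for ZEB1-AS1. With median-of-ratios scaling they were 0.17 for VIM, 0.093 for HMGA2, 0.083 for KLF4, 0.11 for TCF12 and 0.037 for ZEB1-AS1. Without mitochondrially encoded genes FN1 was −0.038. Without TM replicates 1 and 2 they were −0.86 for FN1, 0.073 for ZEB2, 0.46 for TWIST1, 0.41 for HMGA2, 0.046 for TCF12, 0.36 for ZEB1-AS1 and −0.057 for SNAI3-AS1.

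Leaving out 1 sample at a time gave ranges of −0.15 to 0.087 for VIM, −0.38 to 0.70 for FN1, −0.14 to 0.89 for ZEB1, −0.27 to 0.44 for SNAI2, −0.35 to 0.68 for TWIST2, −0.39 to 0.056 for FOSL1. The other ranges were −0.33 to 0.070 for HMGA2, −0.28 to 0.058 for KLF4, −0.029 to 0.68 for KLF5, −0.25 to 0.16 for TCF12, −0.32 to 0.31 for ZEB1-AS1, −0.071 to 0.28 for SNAI3-AS1.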
